A study of Mus musculus with 4 samples.

Results

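The 10 genes described here encode the NF-κB transcription factor subunits (Nfkb1, Nfkb2, Rel, Rela and Relb), proteins that hold the pathway back (Nfkbia, Nfkbib, Nfkbie and Tnfaip3) and the kinase subunit IKKβ (Ikbkb). They were chosen by name, by a rule that uses no measured value, from a bulk RNA-seq table of 55399 mouse genes, with earlier results of these data known. All 10 were found in the table, and all 10 passed the filter on low counts, which kept 16393 genes. RNA came from mouse bone marrow cells labelled Lsk, a name usually given to lineage-negative, Sca-1-positive, Kit-positive stem and progenitor cells. Of the 4 libraries, 2 were from Ppm1bCKO cells (conditional knockout of the phosphatase gene Ppm1b) and 2 from Ppm1bfl/fl cells (Ppm1b alleles flanked by loxP sites). Neither the labels nor the protocols name the Cre driver of the knockout, the age of the mice or whether a library pooled several animals. The comparison asks how transcripts of this pathway stood in Ppm1bCKO relative to Ppm1bfl/fl libraries.

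NF-κB factors are dimers of the 5 subunits, kept in the cytoplasm by IκB proteins until the IKK complex phosphorylates IκB and marks it for degradation. The freed dimers enter the nucleus and bind κB sites, and the genes they switch on include those of their own inhibitors, which closes a negative feedback loop. In blood formation the pathway acts in inflammatory signalling of stem and progenitor cells and in the survival and maturation of B cells. The protein made from Ppm1b has been reported, in human cells, to remove activating phosphates from IKKβ and from the related kinase TBK1, a change in protein that transcript levels do not measure.

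Of the 10 genes, 5 carry a match to the κB consensus, the letters that NF-κB dimers prefer, near a transcription start. The stretches are shown because the feedback loop of the pathway is known to act through κB sites. Whether these matches act in that way was not tested. RefSeq promoters (build GRCm38.p6, 250 bases before to 50 bases after the start) were at hand for 7 of the 10 genes. Capitals mark letters that match the consensus on either strand, and matches that overlap run together. Positions are counted from the start site, and each sequence is written 5′ to 3′ on the strand of its gene.
Nfkbia, chr12:55492648-55492897, minus strand, positions -250 to -1: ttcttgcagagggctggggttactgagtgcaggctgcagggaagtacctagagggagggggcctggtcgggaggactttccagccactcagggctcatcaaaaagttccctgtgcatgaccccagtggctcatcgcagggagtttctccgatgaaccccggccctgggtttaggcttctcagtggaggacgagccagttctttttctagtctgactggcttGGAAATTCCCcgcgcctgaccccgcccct
Nfkbie, chr17:45555569-45555628, plus strand, positions -131 to -72: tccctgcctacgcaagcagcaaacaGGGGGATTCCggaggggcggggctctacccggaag
Nfkb2, chr19:46304677-46304736, plus strand, positions -60 to -1: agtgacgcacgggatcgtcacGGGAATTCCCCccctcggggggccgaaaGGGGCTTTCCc
Rel, chr11:23771026-23771085, minus strand, positions -116 to -57: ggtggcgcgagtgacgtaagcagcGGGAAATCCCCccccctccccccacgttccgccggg
Tnfaip3, chr10:19015411-19015470, minus strand, positions -60 to -1: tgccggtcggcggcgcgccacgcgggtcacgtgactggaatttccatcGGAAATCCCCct

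The match in Nfkbia lies at -29 to -20 and reads GGGAATTTCC on the reverse strand. Of 27025 genes with a RefSeq promoter, 5.14% had a consensus match in at least 1 of them. A match is a run of letters and not a measured binding site, and the promoters at hand for Nfkbib and Rela had none in this window.

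Total counts were 22393973 and 24856083 in Ppm1bCKO replicates 1 and 2, and 26002277 and 30045382 in Ppm1bfl/fl replicates 1 and 2. Levels are given as CPM, counts scaled to the TMM-adjusted total of each library, unless said otherwise. Ppm1b itself stood at 84.3 and 121 CPM in the Ppm1bCKO libraries, against 80.7 and 82.5 CPM in the Ppm1bfl/fl libraries. It was not lower in the libraries labelled Ppm1bCKO, so the direction of every comparison rests on the labels, and a sum over exons does not show whether an exon was deleted. Ppm1bCKO replicate 2 stood apart. It had 2 counts of 4 Y-linked genes, against 5870 to 6396 in the other libraries, and its transcript levels followed gene length, as shown in the plot by exonic length. No label says that the replicates were separate mice. A p-value here therefore measures the spread between libraries, which may be technical for the Ppm1bfl/fl pair. The Ppm1bCKO pair, with 5870 and 2 Y-linked counts, did not come from the same mouse or the same pool. Both Ppm1bfl/fl libraries held Y-linked transcripts, so the genotypes were not matched in them. Labels do not give the sex of the mice, and its part in the differences was not tested.

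None of the 10 genes passed the test of genotype, and the levels nearest to doing so belonged to IκB genes. The edgeR quasi-likelihood test, with Benjamini-Hochberg adjustment over all 16393 genes and a threshold of 0.05, called 0 of the 10, where 0.372% of all tested genes were called. DESeq2 and limma-voom also called 0 of the 10, and 1.21% and 0.305% of all genes. At an unadjusted edgeR p under 0.05 there were 2 of the 10, Nfkbia and Nfkbie, both higher in Ppm1bCKO, where 3.23% of all genes met that limit in that direction. Both Ppm1bCKO libraries lay above both Ppm1bfl/fl libraries for 5 of the 10 genes (Nfkbia, Nfkbib, Nfkbie, Nfkb2 and Rel), and below them for 0, against 20.6% of all tested genes in each direction. The median log2 fold change (Ppm1bCKO over Ppm1bfl/fl) was 0.19 over the 10 genes and -0.003 over all tested genes, with 7 of the 10 positive where 49.6% of all genes were. The median of the 10 was 0.09 without Ppm1bfl/fl replicate 2 and 0.11 without Ppm1bCKO replicate 1. Without Ppm1bCKO replicate 2 the log2 fold changes of the 10 genes lay between -0.07 and 0.48, with 8 positive and 0 called, where 0.547% of all genes were called.

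**Figure D1:**
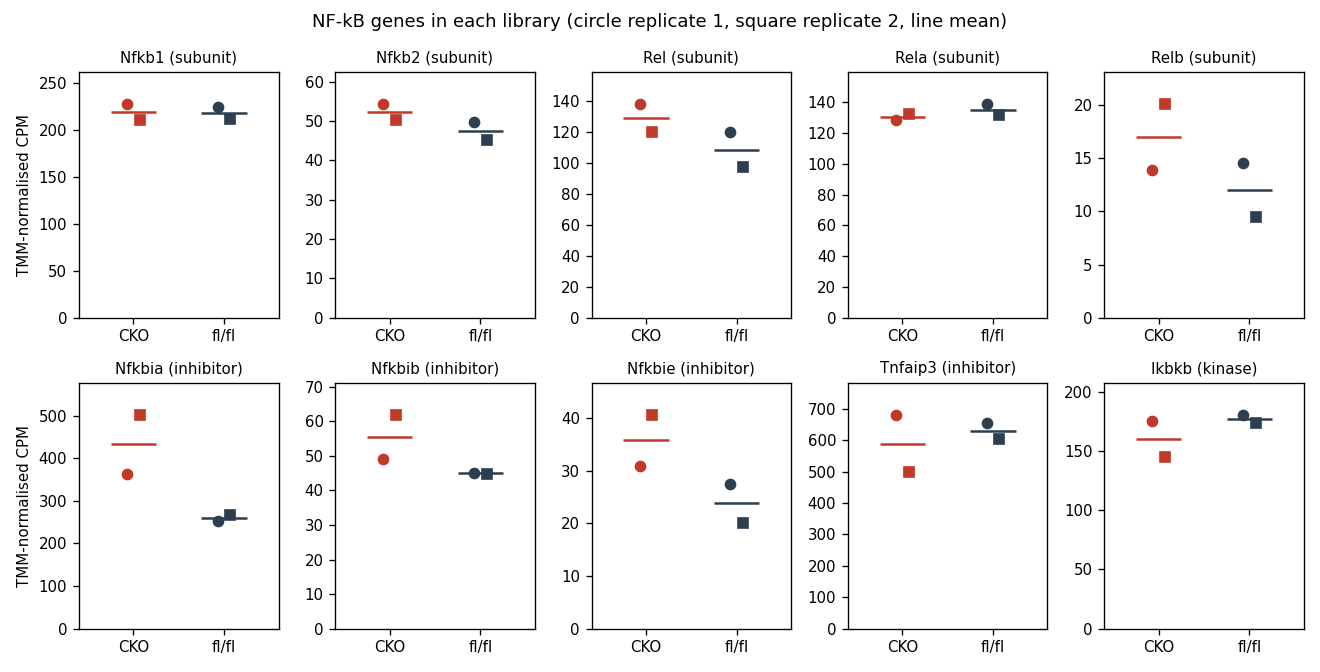
Level of each NF-κB gene in CPM (vertical axes from 0, each with its own scale) in the 2 Ppm1bCKO libraries (red, left) and the 2 Ppm1bfl/fl libraries (dark, right), with circles for replicate 1, squares for replicate 2 and a line at the mean. Nfkbia shows the widest gap between genotypes, with 364 and 501 CPM in Ppm1bCKO above 252 and 268 CPM in Ppm1bfl/fl, while Nfkb1 and Rela overlap.

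The inhibitor gene Nfkbia encodes IκBα, which binds Rela-containing dimers and is among the first genes they induce. It lies on chromosome 12, at 55489410 to 55492647 on the minus strand (mm10). Its level was 364 and 501 CPM in the Ppm1bCKO libraries, against 252 and 268 CPM in the Ppm1bfl/fl libraries, from 6716 to 11895 counts per library. The genotypes did not overlap, and the Ppm1bCKO replicates differed from each other by 0.46 on the log2 scale, against 0.08 between the Ppm1bfl/fl replicates. Nfkbia averaged 433 ± 97.1 CPM in Ppm1bCKO and 260.0 ± 10.8 CPM in Ppm1bfl/fl (SD, n = 2 each). The log2 fold change was 0.73 ± 0.20 (SE), or 1.66-fold with a 95% interval from 1.21-fold to 2.28-fold. It did not pass after adjustment (edgeR adjusted p = 0.414; DESeq2 adjusted p = 0.0562). Of all tested genes, 9.47% had a log2 fold change at least as far from 0. The call changed when no filter on low counts was used (0.73, edgeR adjusted p = 0.0242, where 1.1% of all genes were called). Without Ppm1bCKO replicate 1 the gene was also called, at a log2 fold change of 0.94. Without Ppm1bCKO replicate 2 the log2 fold change was 0.48, and the gene was not called. Each of these fits rests on a single Ppm1bCKO library. Without replicate 1, that library is the one whose levels followed gene length.

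Nfkbie encodes IκBε, a less abundant inhibitor of Rel- and Rela-containing dimers (chromosome 17, 45555703 to 45563169, plus strand). It stood at 31.0 and 40.6 CPM in the Ppm1bCKO libraries, against 27.5 and 20.2 CPM in the Ppm1bfl/fl libraries. The lower Ppm1bCKO library lay 3.42 CPM above the higher Ppm1bfl/fl library, while replicates differed by 9.61 CPM in Ppm1bCKO and 7.38 CPM in Ppm1bfl/fl. The log2 fold change was 0.59 ± 0.23 (SE), with a 95% interval from 0.07 to 1.10 (edgeR adjusted p = 0.717), and among the alternatives the gene was called only without Ppm1bCKO replicate 1 (0.77, edgeR adjusted p = 0.0243). Without Ppm1bCKO replicate 2 it was 0.38, and without Ppm1bfl/fl replicate 2 also 0.38. Nfkbib encodes IκBβ, which holds a share of the dimers for longer after a stimulus (chromosome 7, 28758251 to 28767512, minus strand). Its level was 49.1 and 61.8 CPM in Ppm1bCKO, against 45.0 and 44.9 CPM in Ppm1bfl/fl, again without overlap. Its log2 fold change was 0.30 ± 0.18 (SE) with an interval from -0.10 to 0.71 (edgeR adjusted p = 0.717). It too was called without Ppm1bCKO replicate 1 (0.46, edgeR adjusted p = 0.0275), while without Ppm1bCKO replicate 2 it was 0.13. In the comparison without replicate 1, where replicate 2 alone stands for Ppm1bCKO, 19.4% of all tested genes were called. Exons of Ccer2 and Sirt2, on the other strand, share 14.5% and 1.94% of the exonic bases of Nfkbib, and without a stated strand setting reads there cannot be assigned to one gene.

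Tnfaip3 encodes A20, a ubiquitin-editing enzyme that shuts off signalling upstream of IKK and is itself induced by NF-κB (chromosome 10, 19000910 to 19015657, minus strand). In contrast to Nfkbia, its libraries overlapped, with 680 and 498 CPM in Ppm1bCKO and 654 and 605 CPM in Ppm1bfl/fl. Ppm1bCKO held both the highest and the lowest value. The log2 fold change was -0.10 ± 0.21 (SE), with an interval from -0.57 to 0.37 (edgeR adjusted p = 0.893), and its sign turned without Ppm1bCKO replicate 2 (0.11, edgeR adjusted p = 0.999).

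Ikbkb encodes IKKβ, the kinase that phosphorylates IκBα and whose activating phosphates the Ppm1b protein is reported to remove (chromosome 8, 22659212 to 22706589, minus strand). Its transcripts stood at 176 and 145 CPM in Ppm1bCKO libraries, against 180.1 and 174 CPM in Ppm1bfl/fl libraries. The genotypes overlapped, and Ppm1bCKO replicate 2 alone lay below the other libraries. The log2 fold change was -0.14 ± 0.17 (SE), with an interval from -0.53 to 0.24 (edgeR adjusted p = 0.801). With 19078 exonic bases Ikbkb is the longest of the 10 genes, and its sign turned when the trend of each library with gene length was taken out (0.13, edgeR adjusted p = 0.778).

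Among the subunits, Rela and Nfkb1, which encode the p65 subunit and the precursor of p50, the most studied NF-κB pair, stood closest together in the genotypes. Rela (chromosome 19, 5637483 to 5648130, plus strand) had 129 and 133 CPM in Ppm1bCKO, against 139 and 132 CPM in Ppm1bfl/fl. Nfkb1 (chromosome 3, 135584655 to 135691547, minus strand) had 227 and 211 CPM in Ppm1bCKO, against 225 and 212 CPM in Ppm1bfl/fl. For both genes the libraries of the genotypes overlapped. Their log2 fold changes were -0.05 ± 0.16 and 0.01 ± 0.16 (SE; edgeR adjusted p = 0.93 and 0.989). The 95% intervals reached from 0.755-fold to 1.24-fold for Rela and from 0.782-fold to 1.29-fold for Nfkb1, and changes inside these bounds are not excluded.

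Rel encodes c-Rel, a subunit prominent in lymphocytes (chromosome 11, 23736847 to 23770970, minus strand). Its level was 138.0 and 120.3 CPM in Ppm1bCKO, against 120.2 and 97.4 CPM in Ppm1bfl/fl, so that the nearest libraries of the genotypes were almost level. The log2 fold change was 0.25 ± 0.18 (SE; edgeR adjusted p = 0.725), and it ran from 0.10 without Ppm1bfl/fl replicate 2 to 0.40 without Ppm1bfl/fl replicate 1. Of the non-canonical branch of the pathway, Nfkb2 encodes the precursor of p52 (chromosome 19, 46304320 to 46312385, plus strand) and stood at 54.2 and 50.4 CPM in Ppm1bCKO, against 49.7 and 45.2 CPM in Ppm1bfl/fl. The gap between its nearest libraries was smaller than the gap between replicates of either genotype, and the log2 fold change was 0.14 ± 0.16 (SE; edgeR adjusted p = 0.799), or 0.07 without Ppm1bfl/fl replicate 2 and 0.21 without Ppm1bfl/fl replicate 1. Exons of AC114539.1 and Psd on the other strand share 11.6% and 6.52% of its exonic bases.

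Relb encodes the partner of p52 and was the least abundant of the 10 genes (chromosome 7, 19606217 to 19629438, minus strand). It had 13.9 and 20.1 CPM in Ppm1bCKO, against 14.5 and 9.52 CPM in Ppm1bfl/fl, from 287 to 476 counts per library. The genotypes overlapped, and replicates differed by 0.53 on the log2 scale within Ppm1bCKO and by 0.61 within Ppm1bfl/fl. Its log2 fold change of 0.50 ± 0.28 (SE) had the widest interval of the 10 genes, from -0.15 to 1.14 (edgeR adjusted p = 0.717). It depended on single libraries, with 0.20 without Ppm1bCKO replicate 2, 0.22 without Ppm1bfl/fl replicate 2, 0.74 without Ppm1bCKO replicate 1 and 0.83 without Ppm1bfl/fl replicate 1.

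**Figure D2:**
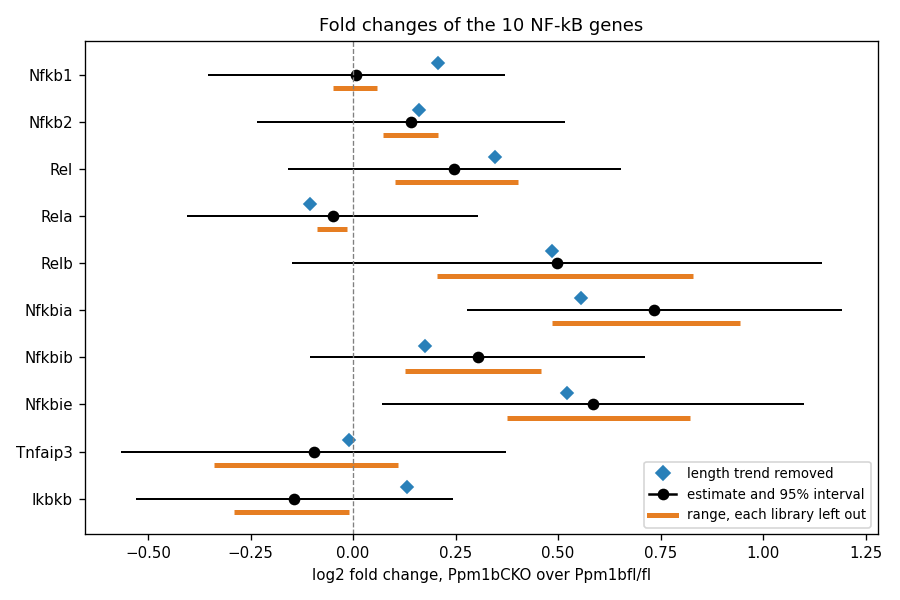
Log2 fold change of each NF-κB gene, Ppm1bCKO over Ppm1bfl/fl (horizontal axis), as the edgeR estimate with its 95% interval (black), the estimate with the length trend of every library taken out (blue diamonds) and the range over fits with each library left out (orange bars). The unadjusted intervals of Nfkbia (0.28 to 1.19) and Nfkbie (0.07 to 1.10) lie above 0, and those of the other 8 genes include it.

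Gene length moved with these differences in 1 library. The 16393 tested genes were split by exonic length into 5 groups of nearly equal size. The median log2 level of Ppm1bCKO replicate 2 relative to the Ppm1bfl/fl mean was 0.30 in the shortest group (up to 1696 bases) and -0.29 in the longest (from 6878 bases). In Ppm1bCKO replicate 1 the same medians were 0.02 and -0.01. Nfkbia, with 1610 exonic bases, is in the shortest group, while Nfkb1, Rel, Tnfaip3 and Ikbkb are in the longest. Relative to the Ppm1bfl/fl mean, Nfkbia stood at 0.95 in Ppm1bCKO replicate 2, above the 0.30 of its group, and at 0.49 in replicate 1, where its group was at 0.02. Tnfaip3 and Ikbkb stood at -0.34 and -0.29 in replicate 2, close to the -0.29 of their group, and at 0.11 and -0.01 in replicate 1. Nfkb1 and Rel, of the same group, stood above its median in replicate 2, at -0.05 and 0.15, and at 0.06 and 0.35 in replicate 1. A fit with the length trend of every library taken out was added once the data had been seen. In it the log2 fold change of Nfkbia was 0.56 ± 0.14, that of Nfkbie 0.52 ± 0.19 and that of Nfkbib 0.18 ± 0.13 (SE; edgeR adjusted p = 0.306, 0.609 and 0.719). The fit gave 0.21 ± 0.14 for Nfkb1 and 0.35 ± 0.14 for Rel, both in the longest group, against 0.01 and 0.25 without it (SE; edgeR adjusted p = 0.691 and 0.634). That fit called 0 of the 10 genes and 0.336% of all genes, and the median of the 10 was 0.19.

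**Figure D3:**
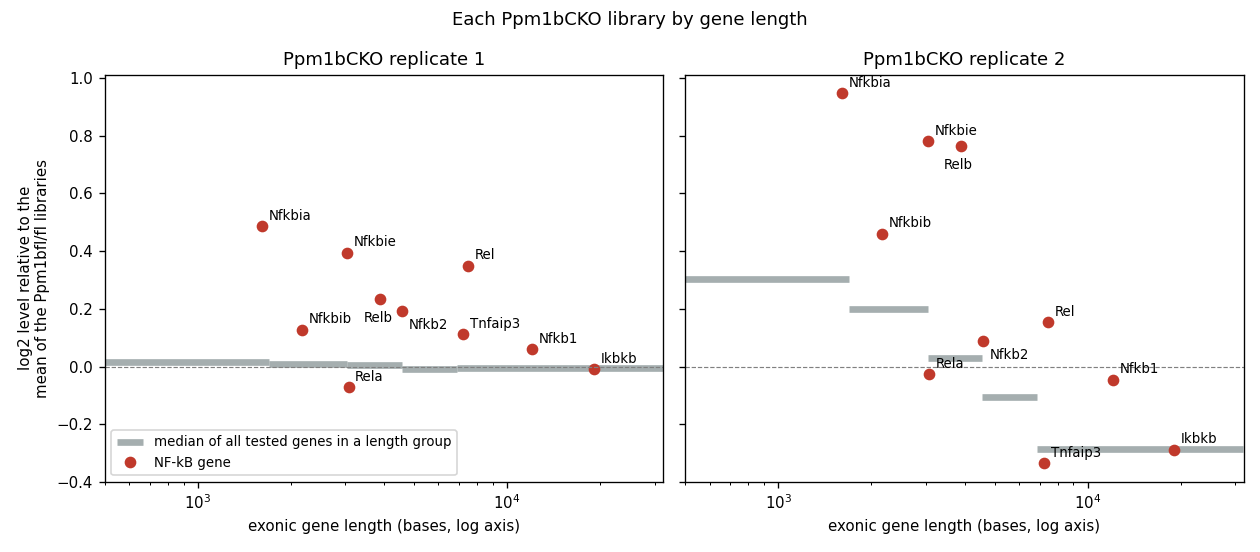
Log2 level of each NF-κB gene relative to the Ppm1bfl/fl mean (vertical axis) against its exonic length in bases (log axis, from 500) in Ppm1bCKO replicate 1 (left) and replicate 2 (right). Grey bars are medians of all tested genes in 5 length groups: they are flat in replicate 1, and in replicate 2 they step down from 0.30 in the shortest group to -0.29 in the longest.

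Levels between genes were compared per length, as TPM, counts divided by the exonic length of the deposited table and scaled to the same sum in every library. Nfkbia was the highest of the 10 in all 4 libraries, with 711 and 805 TPM in Ppm1bCKO and 463 and 496 TPM in Ppm1bfl/fl. Tnfaip3 came next with 296 and 178 TPM in Ppm1bCKO and 268 and 249.6 TPM in Ppm1bfl/fl, then Rela, Nfkbib, Nfkb1 and Rel in this order in every library. The ranges of Nfkbia, Tnfaip3, Rela and Nfkbib over the 4 libraries did not overlap, and those of Nfkb1 and Rel did. Nfkb2, Nfkbie and Ikbkb overlapped below them at 19.6 to 37.2 TPM, and Relb was lowest at 7.30 to 13.3 TPM. By their mean TPM over the 4 libraries, Nfkbia and Tnfaip3 exceeded 98.7% and 96.3% of all tested genes, and Relb 45.5%.

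Per length, transcript levels of the IκB genes summed to more than those of the subunits their proteins bind. The length used counts every annotated exon of a gene and can exceed that of the transcripts made, which was not measured. Nfkbia, Nfkbib and Nfkbie together had 2.74 and 3.8 times the summed TPM of the 5 subunits in Ppm1bCKO, against 1.97 and 2.26 times in Ppm1bfl/fl. Nfkbia made up 87.3% and 88.2% of the 3 inhibitors' TPM in Ppm1bCKO, against 84.0% and 85.9% in Ppm1bfl/fl. Relb made up 3.77% and 5.55% of the subunits' TPM in Ppm1bCKO, against 3.96% and 2.86% in Ppm1bfl/fl. The IκB genes have 1610 to 3045 exonic bases and the subunit genes 3072 to 12061. The ratio in Ppm1bCKO replicate 2 therefore also contains the length trend of that library.

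**Figure D4:**
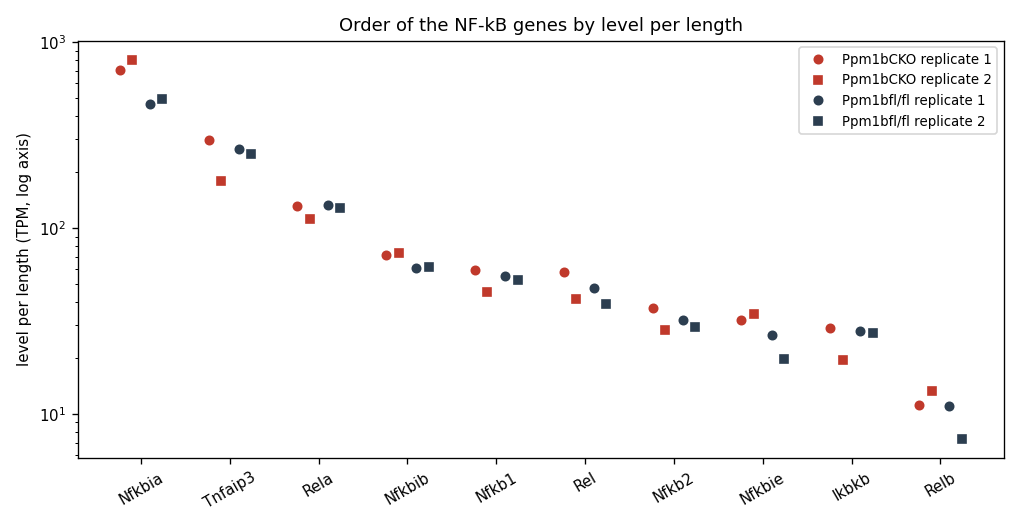
Level per length of each NF-κB gene in TPM (vertical log axis), in order of the mean, in the 2 Ppm1bCKO libraries (red) and the 2 Ppm1bfl/fl libraries (dark), circles for replicate 1 and squares for replicate 2. Nfkbia is highest in every library (463 to 805 TPM) and Relb lowest (7.30 to 13.3 TPM).

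The rest of the pathway was read from a list of 61 genes, all of them tested. EdgeR called 0 higher and 0 lower, DESeq2 and limma-voom also called 0, and 3 had an unadjusted edgeR p under 0.05, all higher in Ppm1bCKO, where 3.23% of all genes met that limit in that direction. The list's median log2 fold change was -0.01, with 28 positive and 33 negative. Both Ppm1bCKO libraries lay above both Ppm1bfl/fl libraries for 15 of the 61 and below for 15, near the 20.6% of all tested genes in each direction. The libraries of the genotypes overlapped for the other subunits of the IKK complex. Chuk, which encodes IKKα, had 87.2 and 80.1 CPM in Ppm1bCKO against 76.4 and 86.2 CPM in Ppm1bfl/fl, and Ikbkg, the regulatory subunit NEMO, had 37.3 and 30.3 CPM against 39.3 and 36.4 CPM. Tbk1, the related kinase also reported as a target of the Ppm1b protein, stood at 69.3 and 63.8 CPM in Ppm1bCKO and at 66.6 and 65.6 CPM in Ppm1bfl/fl (log2 fold change 0.01 ± 0.16, SE; edgeR adjusted p = 0.986). Among 10 upstream kinases and their partners 8 had a negative log2 fold change, from -0.37 to 0.22 over the group, and among 16 adaptors and ubiquitin ligases 10 had a positive one, from -0.33 to 0.39.

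The pathway genes with the smallest p were receptors and ligands that act in B cells and other lymphocytes. Tnfrsf13c, the receptor for the B cell survival factor BAFF, stood at 9.63 and 15.5 CPM in Ppm1bCKO, against 6.46 and 5.64 CPM in Ppm1bfl/fl (log2 fold change 1.06 ± 0.29, SE; edgeR adjusted p = 0.404). Cd40, a receptor through which T cells activate B cells, stood at 5.19 and 6.45 CPM in Ppm1bCKO, against 3.57 and 2.75 CPM in Ppm1bfl/fl (0.88 ± 0.29, SE; edgeR adjusted p = 0.646). The lymphotoxin genes Lta and Ltb had log2 fold changes of 1.67 ± 0.66 and 0.54 ± 0.25 (SE; edgeR adjusted p = 0.717 for both), Lta at no more than 0.59 CPM. The genotypes did not overlap for these 4 genes, where 20.6% of all tested genes were higher in both Ppm1bCKO libraries. They were picked by smallest p, so this is no further support. B cell transcripts were higher as well. The 10 B cell markers listed for this marrow sort summed to 323 and 673 CPM in Ppm1bCKO, against 204 and 217 CPM in Ppm1bfl/fl. Each of the 10 was higher in both Ppm1bCKO libraries than in both others, where 20.6% of all tested genes were. Their part in the levels of Nfkbia, Nfkbie, Relb or Tnfrsf13c was not tested, and in bulk RNA more B cells and more RNA per cell cannot be told apart.

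**Figure D5:**
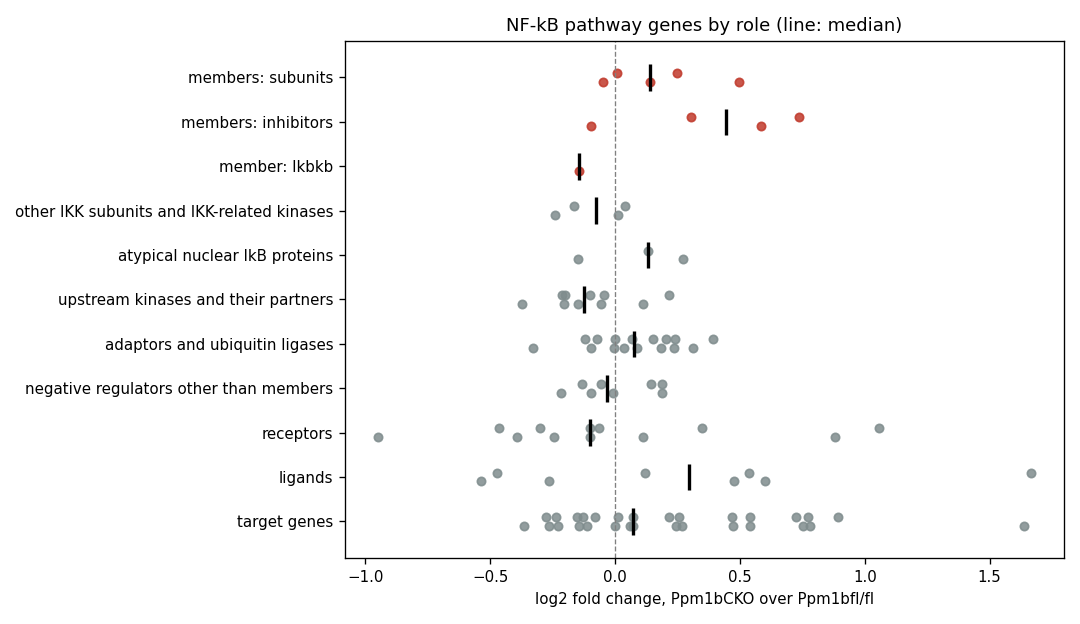
Log2 fold change, Ppm1bCKO over Ppm1bfl/fl (horizontal axis), of each tested NF-κB pathway gene grouped by role, with the 10 genes of this account in red, the 61 other pathway genes and 29 target genes in grey, and a line at each group's median. The inhibitors have a median of 0.44 and the subunits one of 0.14, and no point passed the test of genotype.

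Genes widely known as NF-κB targets were read the same way. Of 32 listed, 29 were tested, and Cxcl1, Nos2 and Csf2 fell below the filter. EdgeR, DESeq2 and limma-voom each called 0, the median log2 fold change was 0.07, and 18 were positive and 11 negative. At an unadjusted edgeR p under 0.05 there were 7, all higher in Ppm1bCKO, where 3.23% of all genes met that limit in that direction. Both Ppm1bCKO libraries lay above both Ppm1bfl/fl libraries for 9 of the 29 and below for 4, against 20.6% of all tested genes in each direction. Plaur, the urokinase receptor, had 166 and 176 CPM in Ppm1bCKO, against 116 and 119 CPM in Ppm1bfl/fl (log2 fold change 0.54 ± 0.16, SE; edgeR adjusted p = 0.491). Cd83, a surface protein of activated B cells and dendritic cells, had 16.4 and 27.8 CPM in Ppm1bCKO, against 12.0 and 11.8 CPM in Ppm1bfl/fl (0.89 ± 0.27, SE; edgeR adjusted p = 0.543). The cytokine gene Il6 had 55.5 and 33.2 CPM in Ppm1bCKO, against 28.3 and 23.2 CPM in Ppm1bfl/fl, with replicate 1 the higher of the Ppm1bCKO libraries (0.78 ± 0.26, SE; edgeR adjusted p = 0.645). With no low-count filter edgeR called 2 of the targets, Cd83 and Il6, where 1.1% of all genes were called. Irf1, a transcription factor induced by both NF-κB and interferon, had 128 and 146 CPM in Ppm1bCKO, against 101 and 96.2 CPM in Ppm1bfl/fl (0.47 ± 0.16, SE; edgeR adjusted p = 0.65).

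Immediate-early genes, which respond within minutes to handling and to growth signals, were read beside them. The 12 of them summed to 5343 and 5407 CPM in Ppm1bCKO, against 7275 and 6484 CPM in Ppm1bfl/fl. The list was mixed, with 5 genes of positive and 7 of negative log2 fold change, and both Ppm1bCKO libraries lay above both Ppm1bfl/fl libraries for 2 of the 12 and below for 5, where 20.6% of all tested genes did in each direction. Fos, a subunit of the AP-1 transcription factor, stood at 679 and 607 CPM in Ppm1bCKO and at 1125 and 1122 CPM in Ppm1bfl/fl (log2 fold change -0.80 ± 0.18, SE; edgeR adjusted p = 0.25), and its relative Fosb had a log2 fold change of -0.67 ± 0.21 (SE; edgeR adjusted p = 0.615). EdgeR called 0 of the 12, limma-voom 0 and DESeq2 1, and 4 had an unadjusted edgeR p under 0.05, all lower in Ppm1bCKO, where 3.21% of all genes met that limit in that direction.

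The libraries held transcripts of cells outside the labelled gate, in amounts that for some cell types did not overlap between genotypes. The 7 surface genes of the Lsk gate and its subsets, with Kit and Ly6a (Sca-1) among them, were all detected and summed to 499.9 and 443 CPM in Ppm1bCKO and 574 and 488 CPM in Ppm1bfl/fl. Plasma cell markers summed to 3996 and 5378 CPM in Ppm1bCKO, against 21610 and 12950 CPM in Ppm1bfl/fl. Macrophage markers, among them Vcam1 of the target list, summed to 511 and 634 CPM in Ppm1bCKO, against 834 and 877 CPM in Ppm1bfl/fl. Eosinophil granule markers summed to 4509 and 7927 CPM in Ppm1bCKO, against 2984 and 3293 CPM in Ppm1bfl/fl. Of these lists, 6 of 8 plasma cell genes and 10 of 12 macrophage genes were lower in both Ppm1bCKO libraries than in both others, and 7 of 7 eosinophil genes were higher. Over all tested genes, 20.6% were lower in this way and 20.6% higher. Dendritic cell markers summed to 759.5 and 762 CPM in Ppm1bCKO, against 641 and 602 CPM in Ppm1bfl/fl, and T and NK cell markers to 206 and 239 CPM in Ppm1bCKO, against 204 and 173 CPM in Ppm1bfl/fl, with 6 of 10 genes of each list higher in both Ppm1bCKO libraries. Their part in the level of Cd83 was not tested. Erythroid markers, at 10690 and 15500 CPM in Ppm1bCKO and 7074 and 12550 CPM in Ppm1bfl/fl, and stromal markers, at 865 and 637 CPM in Ppm1bCKO and 512 and 641 CPM in Ppm1bfl/fl, overlapped between genotypes. Neutrophil markers stood at 4382 and 5150 CPM in Ppm1bCKO, against 4368 and 4232 CPM in Ppm1bfl/fl. Of the 9 genes, 2 were higher in both Ppm1bCKO libraries and 1 lower, against the same 20.6% of all tested genes in each direction. No gene of these lists was at 0 in all libraries. How far these cells account for the NF-κB transcripts was not tested.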

How the data were processed

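The authors deposited 1 table that pairs each gene with its raw counts in the 4 libraries, its coordinates and its exonic length in bases. Trim Galore 0.6.7, HISAT2 2.2.0, featureCounts 2.0.1 and the build mm10 are named in the submitters' processing notes. How multi-mapping reads and strand were handled, and which annotation was used, is not given in the sources used here. TRIzol extraction and a TruSeq library kit are named in the labels' protocols. Of 55399 Ensembl identifiers, 55139 matched GENCODE M21 of the same build, which gave symbols.

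The test was that of edgeR 4.0.16 (R 4.3.3) on the deposited counts (TMM, filterByExpr with a minimum count of 10 and minimum total of 15, robust quasi-likelihood test, no covariate). P-values were adjusted by Benjamini-Hochberg over 16393 genes, threshold 0.05. Intervals are 95% t intervals of the fitted log2 fold change, not adjusted. TPM was computed from counts and deposited lengths. Total counts ran from 22393973 to 30045382 per library, where a count of 0 allows 0.0998 to 0.134 CPM (3 counts, counting error only). Replicates differed beyond sampling noise (chi-square per degree of freedom 53.5 for the Ppm1bCKO pair and 25.5 for the Ppm1bfl/fl pair, genes with 20 or more summed counts). Each was counted as its own library, although this spread does not show that the replicates were separate mice. By their Y-linked counts the Ppm1bCKO libraries came from different mice or pools. On simulated counts of 16003 genes at these depths, 2-fold changes were recovered for 59 of 100 genes and 4-fold changes for 95 of 100, beside 14 false calls. The changed genes were drawn from those above a set mean level. The simulated libraries had no length trend and no Y-linked difference.

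The 10 genes and the lists of pathway genes, targets and markers were chosen with earlier results of these data known. Named beside the 10 genes and Ppm1b were the 4 genes with the smallest p in the pathway list and in the target list, Chuk, Ikbkg and Tbk1, and the 2 immediate-early genes with the smallest p. Alternatives were DESeq2 size factors in edgeR, total counts only, DESeq2 1.42.0, limma-voom (limma 3.58.1), no low-count filter, at least 1 CPM in 2 libraries, immunoglobulin genes left out, the replicate number as a block and each library left out. A lowess correction for gene length in every library (span 0.3) was added after the data were seen.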

Additional observations from a re-analysis of the deposited data

How the results depend on the processing

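With 2 libraries per genotype, 2-fold changes were recovered for 59 of 100 more abundant genes in simulated counts of 16003 genes. The simulation held no length trend, and smaller changes can be missed. Over all genes edgeR called 61, against 199 by DESeq2, 311 with no low-count filter, 207 with the replicate block and 0 with immunoglobulin genes left out (989 at an unadjusted p under 0.05). With each library left out in turn there were 94 to 3336, the highest without Ppm1bCKO replicate 1. Of the 10 NF-κB genes 0 were called, except 1 (Nfkbia) with no low-count filter and 0 to 3 with a library left out. Of the other pathway genes 0 were called, except 1 with no low-count filter and 0 to 10 with a library left out, and of the targets 0, except 2 and 0 to 8. The 3, 10 and 8 all came without Ppm1bCKO replicate 1, where the remaining Ppm1bCKO library is assumed to vary like the Ppm1bfl/fl pair. Of all tested genes, 19.4% were called without Ppm1bCKO replicate 1 and 1.1% with no low-count filter. Whether the counts of called NF-κB, pathway and target genes exceed these shares was not tested. The log2 fold change of Nfkb1 turned negative with total counts only (-0.033) and with no low-count filter (-0.001). It ran from -0.048 to 0.059 with a library left out, and was 0.206 with the length trend removed. That of Tnfaip3 ran from -0.339 to 0.109 with a library left out, and that of Ikbkb was 0.131 with the length trend removed. The median of the 10 genes, 0.194, was 0.088 without Ppm1bfl/fl replicate 2. The signs of the other 7 genes held under all 13 alternatives. Replicates with the same number did not deviate together (correlation 0.064), so the replicate block rests on a shared number alone. It called 0 of the 10 genes, with Nfkbia at 0.72 (edgeR adjusted p = 0.0916). The cause of these changes was not tested.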
